A study of Homo sapiens with 22 samples.

Results

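The genes described here encode proteins of the red cell membrane skeleton and of the complexes that fix it to the lipid bilayer. They were taken by gene symbol: SPTB, EPB41, ANK1, EPB42, SLC4A1, ADD1, ADD2, DMTN and TMOD1, 9 of the 59087 gene names in each of both count tables, and all 9 passed the filter on low counts in both. Transcripts were counted by RNA-Seq in HUDEP-2, an immortalized human line of erythroid progenitors, in 22 libraries. Cells were sampled under expansion conditions (D0) and on day 6 of maturation in differentiation medium (D6). The H2A.X experiment holds 2 WT libraries and 3 libraries of cells without the histone variant H2A.X (H2A.X KO) at each day. The BAZ1B experiment holds 3 WT libraries and 3 libraries without the kinase BAZ1B (BAZ1B KO) at each day. Every group is the same HUDEP-2 line, and each KO is a set of subclones grown from single CRISPR/Cas9-edited cells. The study's text also speaks of WT subclones handled like the KO lines, and the labels do not say which WT cells these libraries came from. The labels do not say whether libraries of a group came from separate cultures, and p-values then measure only the spread between these libraries, which may be technical.

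Under the membrane of the red cell lies a mesh of spectrin tetramers, to which SPTB gives the beta chain. The tail ends of spectrin meet at a junction of short actin filaments, where protein 4.1 (EPB41) strengthens the spectrin to actin contact, adducin (ADD1 and ADD2) and tropomodulin (TMOD1) cap opposite ends of the filaments, and dematin (DMTN) bundles them. Further along, ankyrin (ANK1) ties spectrin to the anion exchanger band 3 (SLC4A1), and protein 4.2 (EPB42) holds that contact together. The mesh is assembled as erythroblasts mature, band 3 appears late, and inherited loss of spectrin, ankyrin, band 3 or protein 4.2 is known as a cause of hereditary spherocytosis and loss of protein 4.1 as a cause of elliptocytosis.

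In GRCh38 with the GENCODE 44 annotation, SPTB spans chr14:64746283-64879907 on the minus strand, EPB41 chr1:28887091-29120046 on the plus strand, EPB42 chr15:43197227-43221018 on the minus strand and SLC4A1 chr17:44248390-44268141 on the minus strand. ADD1 spans chr4:2843844-2930076 on the plus strand, ADD2 chr2:70607618-70768225 on the minus strand and TMOD1 chr9:97501180-97601743 on the plus strand. All are protein-coding genes, and reads were counted over their exons. All 9 genes rose over 6 days in 2 of the 4 maturation comparisons below, and stretches before their start sites are therefore shown for SPTB, EPB41, EPB42, ADD2 and TMOD1, from RefSeq on GRCh38.p14. Each holds the 250 bases before an annotated start, 5′ to 3′ on the strand of the gene. For SPTB, EPB42 and TMOD1 this is the start of the canonical transcript, and for EPB41 and ADD2 another start was chosen because its stretch holds a GATA match. Capitals mark matches, on either strand, to the GATA motif (AGATAA in its first form, with TGATAA counted too, as were the forms AGATAG ending in G and likewise TGATAG), the CACCC box (CCNCNCCC) or the E-box (CANNTG), which are bound by GATA, KLF and basic helix-loop-helix factors of erythroid cells.
SPTB chr14:64879908-64880157 (minus strand): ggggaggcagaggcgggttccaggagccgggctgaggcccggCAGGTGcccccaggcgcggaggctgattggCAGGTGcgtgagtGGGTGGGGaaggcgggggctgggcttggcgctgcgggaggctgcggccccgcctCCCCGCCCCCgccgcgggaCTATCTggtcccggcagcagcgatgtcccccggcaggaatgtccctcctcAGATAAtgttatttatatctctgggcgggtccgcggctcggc
EPB41 chr1:28886850-28887099 (plus strand): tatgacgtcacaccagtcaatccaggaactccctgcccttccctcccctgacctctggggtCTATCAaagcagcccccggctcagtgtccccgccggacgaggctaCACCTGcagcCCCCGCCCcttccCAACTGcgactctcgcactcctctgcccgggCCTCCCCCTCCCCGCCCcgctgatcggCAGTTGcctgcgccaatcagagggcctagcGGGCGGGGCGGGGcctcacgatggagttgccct
EPB42 chr15:43221019-43221268 (minus strand): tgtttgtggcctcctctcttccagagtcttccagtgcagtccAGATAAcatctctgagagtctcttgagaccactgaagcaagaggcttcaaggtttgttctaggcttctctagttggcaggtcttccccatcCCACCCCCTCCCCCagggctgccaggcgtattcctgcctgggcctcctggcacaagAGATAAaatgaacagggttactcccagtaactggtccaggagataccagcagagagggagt
ADD2 chr2:70767716-70767965 (minus strand): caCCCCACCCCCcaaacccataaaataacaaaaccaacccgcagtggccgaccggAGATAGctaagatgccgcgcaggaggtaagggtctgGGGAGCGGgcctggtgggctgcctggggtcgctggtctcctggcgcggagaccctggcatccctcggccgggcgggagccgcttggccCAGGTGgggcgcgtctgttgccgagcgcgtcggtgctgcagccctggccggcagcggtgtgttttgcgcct
TMOD1 chr9:97501416-97501665 (plus strand): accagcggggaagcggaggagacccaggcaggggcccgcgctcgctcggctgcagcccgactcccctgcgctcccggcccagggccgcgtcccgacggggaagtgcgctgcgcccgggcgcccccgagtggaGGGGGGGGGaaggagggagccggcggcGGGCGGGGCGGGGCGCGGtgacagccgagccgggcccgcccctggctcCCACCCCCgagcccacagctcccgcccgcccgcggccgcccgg

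ANK1 and DMTN lie on chromosome 8, on the minus and the plus strand. Stretches of members on chromosome 8 were left out of the search, and none for SLC4A1 was at hand. This left 10 such stretches of 6 members, of which ADD1 was the other. The shares over all promoter stretches include chromosome 8. A GATA motif stood in 4 of the 10, against 22.3% of 35114 promoter stretches of the same length, the CACCC box in 8 of the 10 against 53.4%, and the E-box in 5 of the 10 against 61.8%. The GATA matches of SPTB lay 42 and 92 bases before the start, those of EPB42 61 and 208 bases, that of EPB41 189 bases and that of ADD2 195 bases, and none overlapped another motif. TMOD1, ADD1 and the other starts of SPTB, EPB41 and ADD2 had no GATA match. These matches describe the letters in the windows and not binding.

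Libraries held 11910141 to 41273244 counts, more in the BAZ1B than in the H2A.X experiment. Values below are CPM, read counts scaled to a common library size and normalised by the TMM method within each experiment, so that levels are not set against each other across experiments. The knocked-out gene H2AX, listed as H2AFX, stood at 89.7 to 136 CPM in WT and at 17.5 to 59.8 CPM in H2A.X KO libraries. BAZ1B transcripts were lower in BAZ1B KO at D0 (log2 fold change -0.40, adjusted p = 0.00415 in edgeR), but the guides delete the first exon, so reads from the other exons do not check the knockout. The 11 erythroid markers, among them HBB, summed to 23929 to 33241 CPM in H2A.X WT and 12358 to 16376 CPM in H2A.X KO at D0, and at D6 to 37616 to 63699 and 41814 to 67931 CPM. In the BAZ1B experiment the sums were 6637 to 7390 and 7801 to 8277 CPM at D0 and 36473 to 41515 and 31758 to 37095 CPM at D6. Both WT libraries of the H2A.X experiment thus lay above all 3 KO libraries at D0, and in the BAZ1B experiment the order was the other way round. Among 10 mast cell and eosinophil markers, the sum was 104 to 140 CPM in H2A.X WT and 212 to 429 CPM in H2A.X KO at D0, and 145 to 232 against 3.52 to 14.5 CPM at D6. In the BAZ1B experiment it was 455 to 623 CPM at D0 and 13.2 to 44.05 CPM at D6, and CTSG was at 0 in every library. At D0 the 8 megakaryocyte markers summed to 11.2 to 14.0 CPM in H2A.X WT and 36.9 to 79.8 CPM in H2A.X KO, and the 8 lymphoid and myeloid markers to 3.07 to 3.28 and 7.82 to 31.8 CPM, so that every KO library lay above both WT libraries. In the other groups these sums were 6.46 to 79.1 and 2.24 to 39.9 CPM, and PF4 and PPBP were at 0 everywhere. WT replicate 2 of the H2A.X experiment at D0 had 1.36% of its counts on mitochondrial genes, against 3.19% in the other WT library and 3.51 to 3.72% in the KO libraries of that day. The part of these marker levels in the results was not tested, and in bulk RNA fewer cells of a type and less RNA per cell cannot be told apart. In the H2A.X experiment 5 of the 6 KO columns are marked Redo and no WT column is, so that this mark and the genotype cannot be told apart at D0. Across 12017 genes the KO to WT difference there went with transcript length (Spearman's rho 0.545 at D0 and 0.602 at D6, across genes of the same libraries), against -0.030 and 0.052 in the BAZ1B experiment. Values corrected for length and GC content are therefore given beside the KO to WT results of that experiment, while ratios of levels are uncorrected. Below, ± after a log2 fold change is its standard error (SE).

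**Figure D1:**
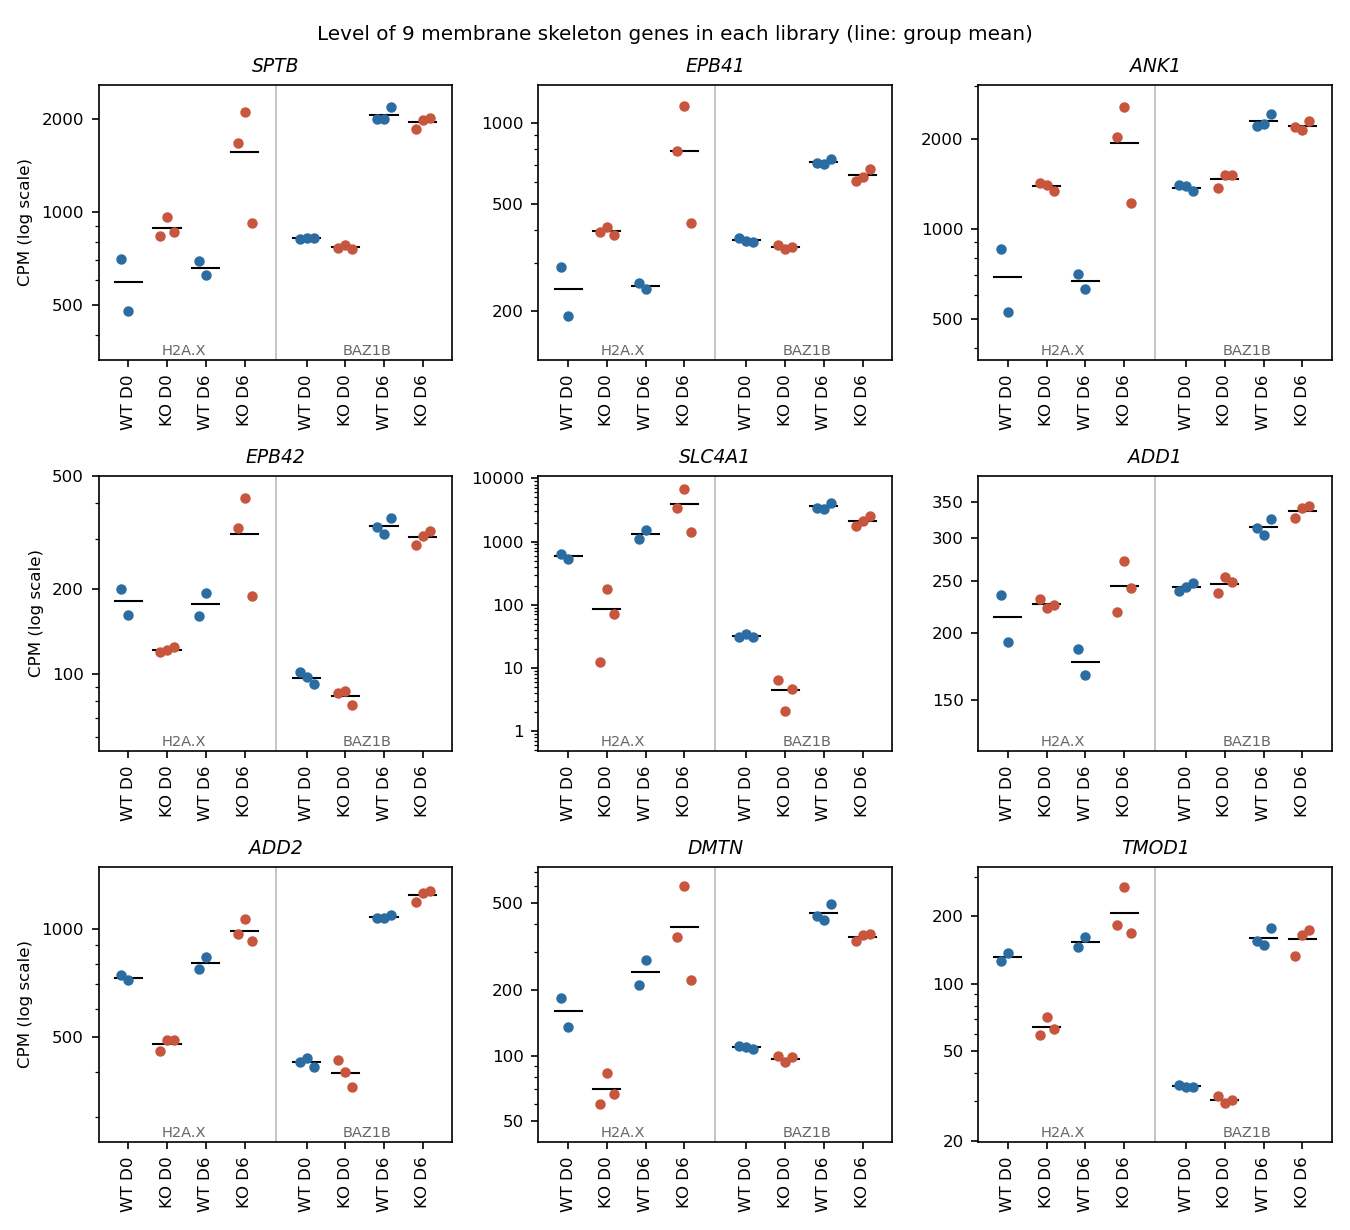
Level of each gene in CPM on a log scale in every library, by genotype and day, with the H2A.X experiment left and the BAZ1B experiment right of the grey line; blue points are WT, red points KO, and black bars group means. In the BAZ1B experiment each D6 point lies above all D0 points of its genotype. SLC4A1 spans the widest range in each experiment, from 12.3 to 6763 CPM in the H2A.X and from 2.05 to 4161 CPM in the BAZ1B experiment.

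How the skeleton genes change as HUDEP-2 cells mature is described first in the BAZ1B experiment, which has 3 libraries in each group. All 9 genes rose from D0 to D6 in WT cells (9 of 9 called at an adjusted p below 0.05, edgeR's quasi-likelihood test with Benjamini-Hochberg adjustment over 13879 genes, against 33.5% of all genes called higher and 35.4% called lower). The rise ran from 1.29-fold for ADD1 to 113-fold for SLC4A1. Under a stricter rule for differentially expressed genes (DEGs), an adjusted p below 0.001 with an absolute log2 fold change above 1.5, 4 of the 9 were DEGs in WT (EPB42, SLC4A1, DMTN and TMOD1), against 11.7% of all genes.

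Of the mesh itself, SPTB, beta spectrin, stood at 818, 819.7 and 821 CPM at D0 and at 1994, 1990.5 and 2175 CPM at D6 in WT (log2 fold change 1.32 ± 0.043, adjusted p = 7.2e-11). EPB41, the protein 4.1 that locks spectrin to actin, went from 371, 365 and 360.1 CPM to 709.5, 704 and 734 CPM (log2 fold change 0.97 ± 0.040, adjusted p = 4.55e-10). Neither gene had a D6 library within the D0 range, and the D6 level over that of the same-numbered D0 library was 2.44, 2.43 and 2.65 for SPTB and 1.91, 1.93 and 2.04 for EPB41. Of the ankyrin complex, ANK1 was already abundant at D0, at 1396, 1386 and 1339 CPM, and reached 2212, 2247 and 2414 CPM (log2 fold change 0.74 ± 0.048, adjusted p = 2.02e-08). EPB42, protein 4.2, rose from 101, 97.3 and 92.1 CPM to 329, 311 and 356 CPM (log2 fold change 1.78 ± 0.065, adjusted p = 1.89e-10). SLC4A1, band 3, rose from 30.9, 34.0 and 31.3 CPM to 3455, 3301 and 4161 CPM (log2 fold change 6.83 ± 0.25, adjusted p = 1.85e-10). The 3 partners of this complex thus rose by very different factors, and ANK1 rose least.

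At the actin junction, ADD1, the widely expressed alpha adducin, moved from 239.6, 243 and 247 CPM to 313, 305 and 326 CPM (log2 fold change 0.37 ± 0.040, adjusted p = 2.59e-06). ADD2, the beta adducin of erythroid cells, moved from 426, 437 and 413 CPM to 1069, 1070.4 and 1094 CPM (log2 fold change 1.34 ± 0.056, adjusted p = 4.55e-10). ADD2 rose more than ADD1 in each of the 3 replicates, and its level per kilobase went from below to above that of ADD1, with ADD2 over ADD1 at 0.793, 0.801 and 0.744 at D0 and 1.52, 1.57 and 1.5 at D6. DMTN, the actin-bundling dematin, went from 111, 109 and 107 CPM to 438, 418 and 497 CPM (log2 fold change 2.05 ± 0.060, adjusted p = 3.07e-11). TMOD1, which caps the slow-growing filament end, went from 35.3, 34.7 and 34.8 CPM to 156, 149 and 177 CPM (log2 fold change 2.20 ± 0.091, adjusted p = 4.37e-10).

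BAZ1B KO cells showed the same direction, with 9 of 9 genes called higher at D6, against 33.2% of all genes called higher and 34.5% called lower, and 5 DEGs, the 4 of WT and ADD2, against 11.5% of all genes. SLC4A1 started from 6.37, 2.05 and 4.70 CPM, which were 243, 82 and 165 reads, and reached 1783, 2106 and 2512 CPM (log2 fold change 8.94 ± 0.28, adjusted p = 6.03e-11). Its rise was 279.9, 1025 and 535 times in the KO replicates against 112, 97.1 and 133 times in WT. DMTN rose from 99.2, 93.2 and 98.6 CPM to 335, 357 and 361 CPM (log2 fold change 1.86 ± 0.060, adjusted p = 6.37e-11) and TMOD1 from 31.6, 29.3 and 30.4 CPM to 133, 166 and 174 CPM (log2 fold change 2.37 ± 0.092, adjusted p = 2.66e-10). ADD2 rose from 432, 399 and 362 CPM to 1186, 1257 and 1271 CPM (log2 fold change 1.64 ± 0.056, adjusted p = 1.01e-10). The other 5 genes had log2 fold changes of 0.45 ± 0.040 for ADD1, 0.59 ± 0.048 for ANK1, 0.88 ± 0.040 for EPB41, 1.35 ± 0.043 for SPTB and 1.87 ± 0.065 for EPB42. In WT and in KO no D6 library of any of the 9 genes overlapped the D0 libraries. Of all genes, 38.1% lay higher and 39.9% lower without overlap in WT, and 33.3% and 34.6% in KO.

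In H2A.X WT cells the same interval gave no call among the 9 genes (0 of 9 in edgeR, against 0.839% of all genes called higher and 1.16% called lower). None of the 9 had an unadjusted p below 0.05 either, and DESeq2 and the length and GC correction also called 0. Of the 11 erythroid markers 0 were called as well in edgeR, with 10 positive log2 fold changes and 4 at an unadjusted p below 0.05. SLC4A1 stood at 647 and 522 CPM at D0 and 1082 and 1553 CPM at D6 (log2 fold change 1.17 ± 0.93, adjusted p = 0.512), and its 95% interval of the log2 fold change ran from -0.65 to 2.99. DMTN stood at 183 and 136 CPM and 210.5 and 274 CPM, and TMOD1 at 127 and 137 CPM and 146 and 162 CPM. In these 3 genes and in ADD2, at 742 and 719 CPM and 773 and 832 CPM, both D6 libraries lay above both D0 libraries (4 of 9, against 25.2% of all genes). SPTB, at 704 and 476 CPM and 691 and 625 CPM, overlapped between days, as did ANK1, EPB41 and EPB42. With 2 libraries a day the intervals were wide, on the log2 scale from -0.48 to 0.80 for SPTB and from -0.67 to 0.57 for ANK1. ADD1 lay lower in both D6 libraries (1 of 9, against 26.1% of all genes), at 187 and 167 CPM against 235 and 192 CPM at D0 (log2 fold change -0.27 ± 0.16, adjusted p = 0.369).

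In H2A.X KO cells 7 of 9 genes were called higher at D6, against 14.8% of all genes called higher and 16.1% called lower. ANK1 and ADD1 were the exceptions. With the length and GC correction 8 were called higher, ANK1 among them at 0.66 (adjusted p = 0.0159 in edgeR). Of all genes, 21.4% were then called higher and 17.7% lower. DMTN went from 60.0, 83.3 and 66.6 CPM to 351, 598 and 222 CPM (log2 fold change 2.48 ± 0.33, adjusted p = 0.000561) and TMOD1 from 59.3, 71.0 and 62.9 CPM to 183, 271 and 169 CPM (log2 fold change 1.69 ± 0.18, adjusted p = 0.000225). These 2 genes were DEGs, against 3.22% of all genes. SLC4A1 went from 12.3, 177 and 71.4 CPM to 3466, 6763 and 1404 CPM (log2 fold change 5.48 ± 0.91, adjusted p = 0.00179), a rise of 282, 38.3 and 19.7 times in the 3 replicates. The KO replicates spread more widely on the log scale at D0, where replicate 1 was lowest, than at D6, where replicate 3 was.

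ADD2 went from 456, 491 and 491 CPM to 968, 1067 and 922 CPM in H2A.X KO (log2 fold change 1.04 ± 0.12, adjusted p = 0.00031), and EPB42 from 119, 121 and 125 CPM to 328, 419 and 188 CPM (log2 fold change 1.36 ± 0.25, adjusted p = 0.00288). EPB41 went from 392, 409 and 383 CPM to 783, 1155 and 423 CPM (log2 fold change 0.996 ± 0.30, adjusted p = 0.0306), and SPTB from 833, 961 and 862 CPM to 1664, 2102 and 919.9 CPM (log2 fold change 0.82 ± 0.27, adjusted p = 0.041). In SPTB, ANK1 and EPB41, replicates 1 and 2 stood higher at D6 than at D0, while replicate 3, whose D6 library has no Redo mark, stood at 1.07, 0.911 and 1.11 times its D0 level. ANK1 stood at 1419.7, 1405 and 1343 CPM at D0 and 2024, 2552 and 1223 CPM at D6 (log2 fold change 0.48 ± 0.26, adjusted p = 0.192), and ADD1 at 231, 222 and 225 CPM and 219, 273 and 243 CPM (log2 fold change 0.11 ± 0.13, adjusted p = 0.561). In 6 of the 9 genes all D6 libraries lay above the D0 libraries (against 23.7% of all genes, with 25.2% below), and ANK1, ADD1 and SPTB were the others.

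**Figure D2:**
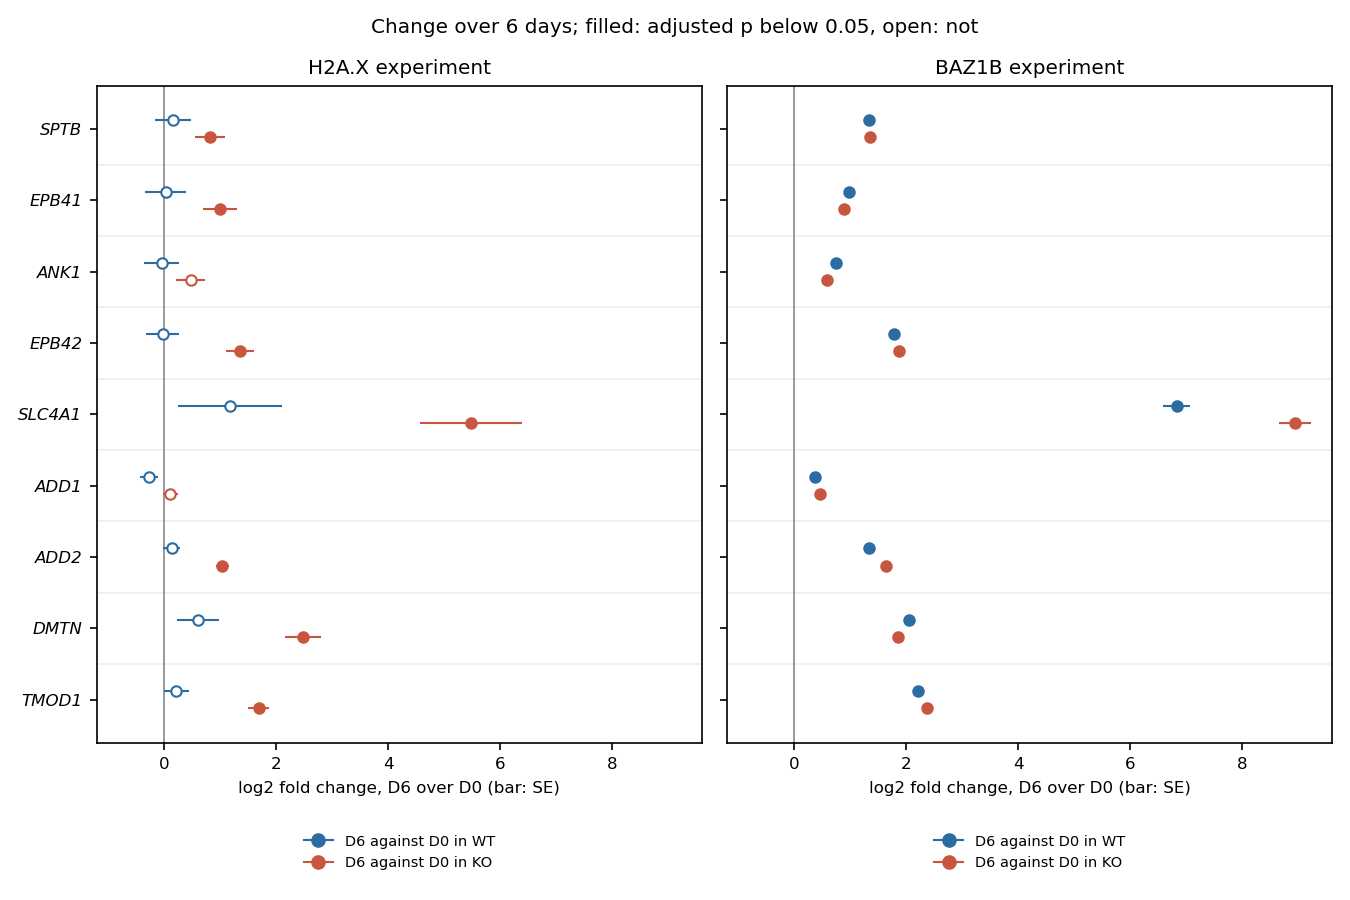
Log2 fold change of each gene from D0 to D6 with its standard error, WT in blue and KO in red, in the H2A.X experiment (left) and the BAZ1B experiment (right); filled points passed an adjusted p of 0.05 in edgeR and open points did not. All 18 points of the BAZ1B experiment are filled, and in the H2A.X experiment 7 of the 9 KO points are filled and none of the WT points.

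Against WT, H2A.X KO cells at D0 had 4 genes lower and 1 higher (against 16.7% of all genes called lower and 18.4% called higher). The WT libraries compared here were the only D0 group in which SLC4A1 had the highest level per kilobase of the 9 genes. SLC4A1 was lower, at 12.3, 177 and 71.4 CPM in KO against 647 and 522 CPM in WT (log2 fold change -2.75 ± 0.84, adjusted p = 0.0302). DMTN, at 60.0, 83.3 and 66.6 CPM against 183 and 136 CPM, was lower as well (log2 fold change -1.19 ± 0.34, adjusted p = 0.0238). TMOD1, at 59.3, 71.0 and 62.9 CPM against 127 and 137 CPM, was lower by 2.05-fold (log2 fold change -1.04 ± 0.20, adjusted p = 0.00757). The called genes of the actin junction and band 3 thus lay below WT in every KO library. ADD2 was lower by 1.52-fold (log2 fold change -0.61 ± 0.13, adjusted p = 0.0101), and ANK1 was the gene called higher, at 1419.7, 1405 and 1343 CPM against 858 and 525 CPM (log2 fold change 1.01 ± 0.30, adjusted p = 0.0265). The remaining genes were not called, with log2 fold changes of 0.58 ± 0.30 for SPTB, 0.71 ± 0.34 for EPB41, -0.57 ± 0.27 for EPB42 and 0.084 ± 0.15 for ADD1. KO and WT libraries did not overlap in 8 of the 9 genes, SPTB, ANK1 and EPB41 lying above WT, EPB42, SLC4A1, ADD2, DMTN and TMOD1 below it, and ADD1 overlapping. Of all genes, 36.1% lay above and 34.1% below WT without overlap, so that such a gap was common in these libraries. The erythroid marker sum was also lower in KO than in WT. Of its 11 markers 9 were called lower and 0 higher (edgeR, against the same shares of all genes called, 16.7% and 18.4%). With the length and GC correction 6 were called lower and 0 higher (against 13.3% and 9.22%). Between both WT libraries the sum was higher in replicate 2, where SLC4A1, DMTN and ADD2 were lower and TMOD1 was higher. The part of these markers in the 4 genes called lower was not tested.

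The genes that lay higher in KO, SPTB, ANK1 and EPB41, have long canonical transcripts of 10177, 8292 and 6031 bases, as has ADD2 with 9290 bases, while EPB42, with 2344, has the shortest of the 9. After correction for length and GC content, 3 genes were called lower and 0 higher at D0 (edgeR, against 13.3% and 9.22% of all genes). SLC4A1 stayed called at a log2 fold change of -3.13 (adjusted p = 0.0308), ADD2 at -1.51 (adjusted p = 0.00184) and TMOD1 at -1.19 (adjusted p = 0.00714). DMTN was at -1.04 (adjusted p = 0.0604) and ANK1 at 0.31 (adjusted p = 0.285), and the direction turned for SPTB, at -0.27, and ADD1, at -0.18. What an RNA effect of the knockout and a length effect of the libraries each add cannot be told apart for the long transcripts. Without WT replicate 2 at D0, the library with the low mitochondrial share, none of the 9 genes was called in edgeR, and without KO replicate 3 at D6, 8 were. The part of that share in the calls was not tested. Leaving out D0 replicate 1 of WT or of KO, or D0 replicate 3 of KO, gave 2 or 3 calls.

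At D6 all 9 genes had a positive log2 fold change in H2A.X KO and 5 were called higher, none lower (against 22.2% of all genes called higher and 20.9% called lower). EPB41 was higher by 3.19-fold, at 783, 1155 and 423 CPM against 253 and 241 CPM in WT (log2 fold change 1.67 ± 0.36, adjusted p = 0.00608). ANK1, at 2024, 2552 and 1223 CPM against 708 and 631 CPM, was higher by 2.89-fold (log2 fold change 1.53 ± 0.30, adjusted p = 0.00501). SPTB, at 1664, 2102 and 919.9 CPM against 691 and 625 CPM, was higher by 2.37-fold (log2 fold change 1.25 ± 0.31, adjusted p = 0.0107). Spectrin, ankyrin and protein 4.1 were thus highest in KO replicate 2, and KO replicate 3 lay nearest to WT. EPB42, at 328, 419 and 188 CPM against 160.2 and 193 CPM, was higher by 1.76-fold (log2 fold change 0.82 ± 0.28, adjusted p = 0.0371), and ADD1 by 1.39-fold (log2 fold change 0.47 ± 0.15, adjusted p = 0.0291). SLC4A1 was not called, at 3466, 6763 and 1404 CPM against 1082 and 1553 CPM (log2 fold change 1.56 ± 0.88, adjusted p = 0.174), nor were ADD2, at 0.30 ± 0.14, DMTN, at 0.69 ± 0.35, and TMOD1, at 0.43 ± 0.20 on the log2 scale. In 6 of the 9 genes every KO library lay above both WT libraries (against 31.0% of all genes, with 32.3% below), and in EPB42, SLC4A1 and DMTN KO replicate 3 lay among the WT values. That library carries no Redo mark, like WT, and the part of the mark in these values was not tested. The erythroid marker sums of both groups overlapped at D6, and of the 11 markers 2 were called higher and 2 lower (against 22.2% and 20.9% of all genes).

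Corrected for length and GC content, 3 genes were called higher at D6 (against 10.1% of all genes), ANK1 at 0.92 (adjusted p = 0.0168), EPB41 at 1.02 (adjusted p = 0.0427) and EPB42 at 1.09 (adjusted p = 0.0342). SPTB was at 0.56 (adjusted p = 0.0774), ADD1 at 0.22 (adjusted p = 0.189), and ADD2 turned to -0.53 (adjusted p = 0.0502). Without WT replicate 2 at D6 none of the 9 was called in edgeR, and without WT replicate 1 or KO replicate 2 at D6, or KO replicate 2 or 3 at D0, 3 were.

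**Figure D3:**
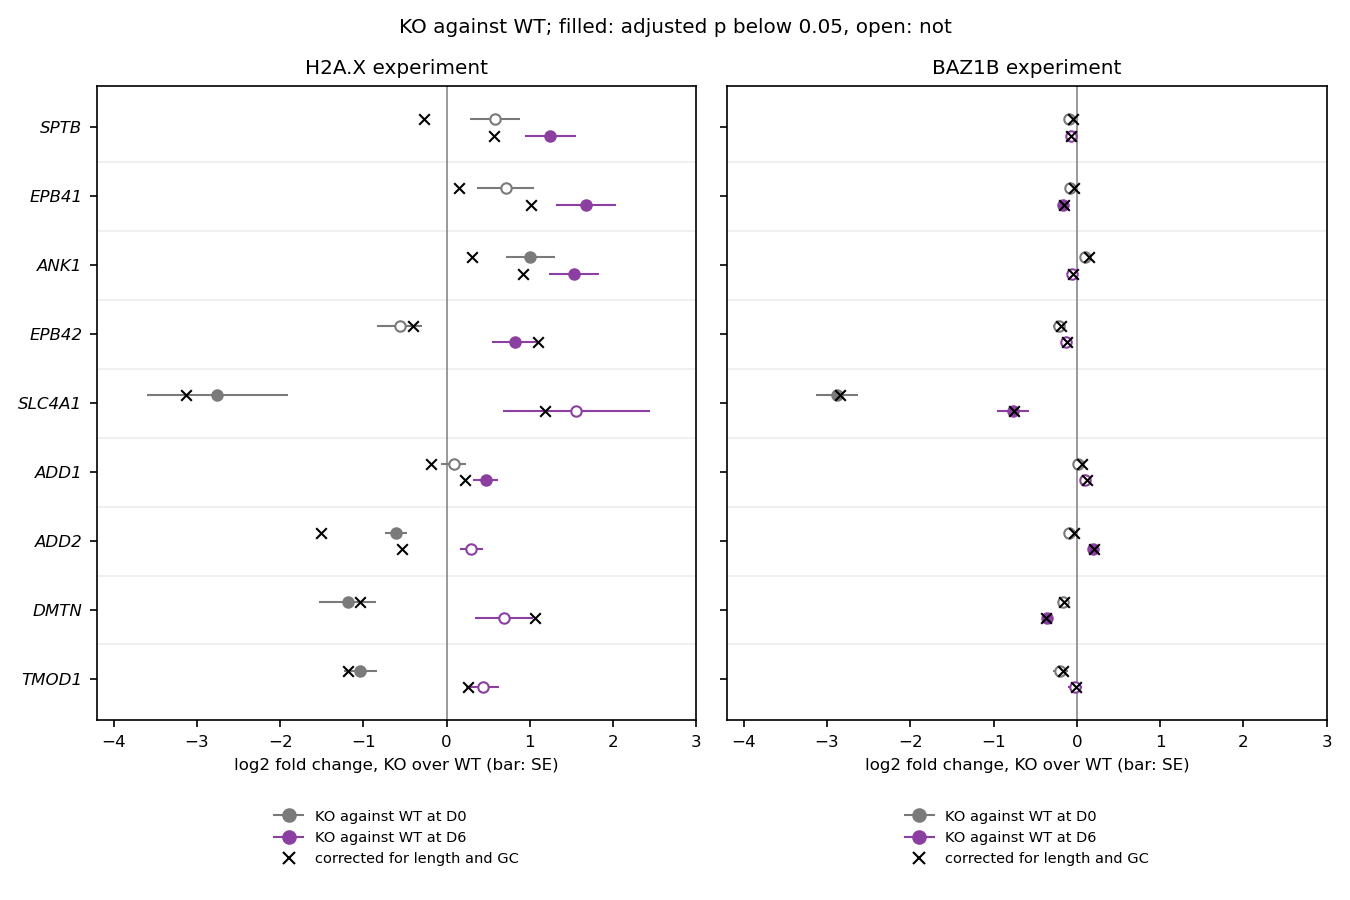
Log2 fold change of KO over WT with its standard error at D0 (grey) and D6 (purple), in the H2A.X experiment (left) and the BAZ1B experiment (right); filled points passed an adjusted p of 0.05 in edgeR, and crosses are the values corrected for transcript length and GC content. In the H2A.X experiment D6 points lie right of D0 points for all 9 genes, and in the BAZ1B experiment all points but those of SLC4A1 lie between -0.36 and 0.20.

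Whether the KO effect itself differed between days was tested as an interaction. In the H2A.X experiment all 9 differences were positive, but 1 passed the test, TMOD1 (against 0.302% of all genes called higher and 1.04% called lower). TMOD1 had a log2 fold change of -1.04 at D0 and 0.43 at D6, a difference of 1.47 ± 0.28 (adjusted p = 0.0386). ADD2 had a difference of 0.90 ± 0.19 (adjusted p = 0.0517), DMTN of 1.88 ± 0.49 (adjusted p = 0.1) and SLC4A1 of 4.31 ± 1.24 (adjusted p = 0.132). D0 and D6 libraries of the same genotype and number deviated together in this experiment, although the labels do not say what a number stands for. With genotype and number as a block 4 genes were called: TMOD1 at 1.44 (adjusted p = 0.00923), ADD2 at 0.90 (adjusted p = 0.0218), DMTN at 1.78 (adjusted p = 0.0302) and SLC4A1 at 4.62 (adjusted p = 0.0324). DESeq2 called 5. With any single library of the 4 WT or of the 3 KO at D0 left out, 0 were called in edgeR, and without KO replicate 3 at D6, 6 were.

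BAZ1B KO cells at D0 had 1 gene lower than WT and none higher (against 2.64% of all genes called lower and 1.25% called higher). This was SLC4A1, at 6.37, 2.05 and 4.70 CPM in KO against 30.9, 34.0 and 31.3 CPM in WT, 7.38-fold lower (log2 fold change -2.88 ± 0.25, adjusted p = 2.53e-05). It was also the single DEG among the 9, against 0.360% of all genes. Counts behind these values were 243, 82 and 165 reads in KO and 1272, 1482 and 1336 reads in WT. The spread between these libraries may be technical, and differences between subclones or cultures were not tested. Of the other 8 genes, those that came nearest were EPB42, at -0.22 ± 0.064 (adjusted p = 0.0909), and DMTN, at -0.17 ± 0.059 (adjusted p = 0.153). KO libraries lay below all WT libraries in 6 of the 9 genes (against 12.7% of all genes) and above them in none (9.76%), with ANK1, ADD1 and ADD2 overlapping. The erythroid marker sum of these KO libraries was not below that of WT, at 7801 to 8277 against 6637 to 7390 CPM. Of the 11 markers in it 2 were called lower and 1 higher (edgeR, against 2.64% and 1.25% of all genes).

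At D6, 3 genes were lower in BAZ1B KO and 1 was higher (against 5.97% of all genes called lower and 6.87% called higher). SLC4A1 was still lower, at 1783, 2106 and 2512 CPM against 3455, 3301 and 4161 CPM (log2 fold change -0.77 ± 0.19, adjusted p = 0.0185). DMTN was lower by 1.29-fold, at 335, 357 and 361 CPM against 438, 418 and 497 CPM (log2 fold change -0.36 ± 0.057, adjusted p = 0.00121), and EPB41 by 1.12-fold (log2 fold change -0.17 ± 0.040, adjusted p = 0.0143). ADD2 was the gene called higher, at 1186, 1257 and 1271 CPM against 1069, 1070.4 and 1094 CPM (log2 fold change 0.20 ± 0.055, adjusted p = 0.0296). In all 4 genes KO and WT libraries were apart (of all genes, 15.7% above and 15.2% below), as they were for ADD1, which lay higher in KO at a log2 fold change of 0.10 ± 0.040 (adjusted p = 0.116). These differences, SLC4A1 aside, were small, at 1.12 to 1.29-fold. SPTB, ANK1, EPB42 and TMOD1 were not called, and their 95% intervals on the log2 scale ran from -0.16 to 0.0095, -0.15 to 0.039, -0.25 to -0.0070 and -0.19 to 0.14. With upper-quartile normalization 3 genes were lower and 0 higher, and without WT replicate 3 at D6, DMTN alone was called, as lower. The erythroid marker sums, at 31758 to 37095 CPM in KO and 36473 to 41515 CPM in WT, overlapped. Of the 11 markers 3 were called lower and 0 higher (edgeR, against the same shares of all genes). Their log2 fold change was negative in 9, with a median of -0.17, and with the length and GC correction none was called.

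The BAZ1B KO effect on SLC4A1 differed between days, at -2.88 at D0 and -0.77 at D6, a difference of 2.11 ± 0.32 (adjusted p = 0.0053 in edgeR). It was the only member past the test (1 of 9 higher, 0 lower, against 1.58% of all genes called higher and 0.893% called lower). ADD2 had a difference of 0.30 ± 0.077 (adjusted p = 0.0684), and leaving out KO replicate 1 at D0 gave 2 calls. The per-replicate rise of ADD2 was 2.75, 3.15 and 3.51 times in KO and 2.51, 2.45 and 2.65 times in WT.

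SLC4A1 was lower at D0 in both knockouts, by log2 fold changes of -2.75 ± 0.84 without H2A.X and -2.88 ± 0.25 without BAZ1B, and the test of the difference in the joint fit gave 0.17 ± 0.91 with an interval from -1.61 to 1.95 (adjusted p = 0.904). That interval is too wide to show that the effects were alike. In the same joint fit of 22 libraries the KO effects at D0 differed for 4 genes, 1 with a higher value in the H2A.X experiment and 3 with a lower one (against 20.8% of all genes called higher and 15.7% called lower). ANK1 differed by 0.95 ± 0.28 (adjusted p = 0.0133), TMOD1 by -0.80 ± 0.21 (adjusted p = 0.00601), ADD2 by -0.47 ± 0.11 (adjusted p = 0.00416) and DMTN by -0.98 ± 0.34 (adjusted p = 0.0292). With the length and GC correction 2 genes differed, both with a lower value. At D6 the KO effect was higher in the H2A.X than in the BAZ1B experiment for 8 of the 9 genes, all but ADD2 (against 24.5% of all genes called higher and 17.9% called lower). The differences ran from 0.44 ± 0.13 for ADD1 (adjusted p = 0.0125) over 1.39 ± 0.29 for SPTB (adjusted p = 0.000994) and 1.91 ± 0.33 for EPB41 (adjusted p = 0.000266) to 2.40 ± 0.90 for SLC4A1 (adjusted p = 0.0393). With the correction 5 were higher and ADD2 was lower, at -0.73 (adjusted p = 0.0035), and without WT replicate 1 or 2 of the H2A.X experiment at D6, 5 were higher.

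Levels of different genes were compared as CPM per kilobase of the canonical transcript. At D0 in BAZ1B WT cells ANK1 led, at 166 ± 3.67 CPM per kilobase (SD, n = 3), before SPTB at 80.5 ± 0.130, and TMOD1, at 10.6 ± 0.104, and SLC4A1, at 6.48 ± 0.334 CPM per kilobase, were lowest. Between them lay EPB41 at 60.6 ± 0.945, ADD1 at 58.8 ± 0.906, ADD2 at 45.8 ± 1.32, EPB42 at 41.3 ± 1.94 and DMTN at 39.3 ± 0.763 CPM per kilobase. Of the 8 pairs of neighbours in this order 1 overlapped between libraries. At D6 SLC4A1 had moved from last to first, at 735 ± 92.6 CPM per kilobase, before ANK1 at 276 ± 13.0 and SPTB at 202 ± 10.4, while TMOD1, at 48.5 ± 4.39 CPM per kilobase, was last. Of the 8 neighbour pairs 2 overlapped. BAZ1B KO cells had the same first and last genes as WT on each day, with SLC4A1 at 0.883 ± 0.439 CPM per kilobase at D0 and 431 ± 73.8 at D6.

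H2A.X KO cells at D0 had an order like that of BAZ1B cells, with ANK1 first at 168 ± 4.92 CPM per kilobase (SD, n = 3) and SLC4A1 last at 17.5 ± 16.8, where SLC4A1 and TMOD1, at 19.4 ± 1.80, overlapped. H2A.X WT cells at D0 differed, with SLC4A1 first at 118 ± 17.7 CPM per kilobase (SD, n = 2) before ANK1 at 83.4 ± 28.4, and with neighbouring genes overlapping in 7 of 8 pairs. SLC4A1 was first in every D6 group, at 266 ± 67.2 CPM per kilobase in H2A.X WT and 783 ± 546 in H2A.X KO, where 5 and 7 of 8 neighbour pairs overlapped. The ratio of SLC4A1 to ANK1 per kilobase, band 3 to its anchor, was 1.26 and 1.67 in H2A.X WT at D0 and 0.0145, 0.210 and 0.0890 in H2A.X KO. It was 0.0371, 0.0411 and 0.0392 in BAZ1B WT and 0.00777, 0.00226 and 0.00521 in BAZ1B KO. At D6 it lay above 1 in every library, at 2.56 and 4.12 in H2A.X WT, 2.87, 4.44 and 1.92 in H2A.X KO, 2.61, 2.46 and 2.88 in BAZ1B WT and 1.37, 1.64 and 1.84 in BAZ1B KO. At D0 H2A.X WT was the single group above 1, and in the BAZ1B experiment the KO ratios lay below all WT ratios on both days.

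The ratio of EPB42 to ANK1 per kilobase was higher in each D6 library of the BAZ1B experiment than in any D0 library of its genotype, and went from 0.256, 0.248 and 0.243 to 0.526, 0.490 and 0.522 in WT. In the H2A.X experiment it was 0.822 and 1.09 at D0 and 0.800 and 1.08 at D6 in WT, and 0.297, 0.305 and 0.328 and 0.574, 0.581 and 0.543 in KO. This ratio of a short to a long transcript thus lay lower in every H2A.X KO library than in any WT library of that experiment. ADD2 over ADD1 was 1.41 and 1.67 in H2A.X WT and 0.879, 0.983 and 0.971 in H2A.X KO at D0, and 1.85 and 2.23 and 1.97, 1.74 and 1.69 at D6. The ratio was under 1 in every D0 library but those of H2A.X WT, and over 1 in every D6 library.

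Across the 12 libraries of the BAZ1B experiment the 9 genes moved together, with Pearson's r of log2 CPM from 0.913 to 0.999 over the 36 pairs. Across the 10 libraries of the H2A.X experiment they fell into parts that were chosen after the values were seen: pairs among SPTB, ANK1 and EPB41 had r of 0.943 to 0.993, pairs among EPB42, SLC4A1, ADD2, DMTN and TMOD1 0.853 to 0.987, and pairs between both parts 0.0713 to 0.695. ADD1 had r of 0.681 to 0.791 with the first part and -0.0052 to 0.320 with the second. The points of each correlation share libraries, depth and day, and the first part has long transcripts, so these values describe the libraries and carry no test. The gene most like SPTB over both experiments was EPB41 (mean r 0.994, of 10065 genes ranked), and those most like DMTN included SLC2A1 (0.996) and SLC30A10 (0.993). TMOD1 was nearest to UCP2 (0.990), ADD2 (0.989) and RBM38 (0.988), and ADD2 to RAB3IL1 (0.990), TMOD1 (0.989) and UCP2 (0.988). For SPTB, SLC7A1 (0.991) and DDI2 (0.989) followed, and EPB41 had SPTB (0.994), TET3 (0.993) and ATAD2 (0.991). ANK1 had KMT2E (0.992), KIDINS220 (0.990) and NCAPD2 (0.989), and EPB42 had ADIPOR1 (0.989), MARK3 (0.984) and RHAG (0.983). SLC4A1 had ATP1B2 (0.985), LTBP1 (0.983) and SCPEP1 (0.981), and ADD1, whose closest genes were least close, had LINC00641 (0.944), CMTR1 (0.944) and PLK4 (0.943).

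**Figure D4:**
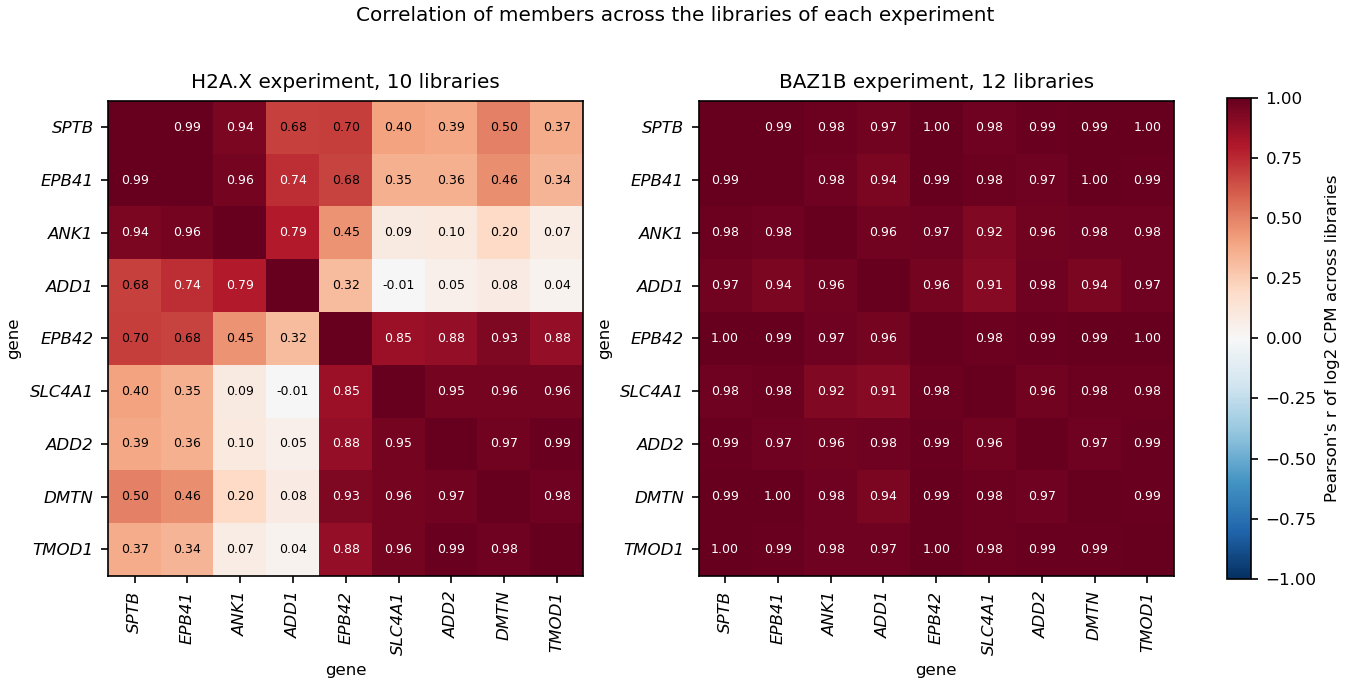
Pearson's r of log2 CPM between each pair of the 9 genes across the 10 libraries of the H2A.X experiment (left) and the 12 libraries of the BAZ1B experiment (right), with both axes listing genes and colour giving r from -1 to 1. On the right all pairs exceed 0.91, and on the left SPTB, EPB41 and ANK1 stand apart from EPB42, SLC4A1, ADD2, DMTN and TMOD1.

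Other parts of the skeleton did not move as one. Of 13 partners, among them actins, tropomyosins and the capping protein subunits, 6 rose and 6 fell from D0 to D6 in BAZ1B WT and likewise in BAZ1B KO. Of all genes, 33.5% rose and 35.4% fell in WT, and 33.2% and 34.5% in KO. The tropomyosin TPM1 rose in BAZ1B WT by 1.63 ± 0.068 (adjusted p = 4.87e-10 in edgeR), while TPM4 fell by 4.71 on the log2 scale (adjusted p = 7.2e-10) and the cytoplasmic actin ACTG1 by 2.45 (adjusted p = 1.93e-09). In H2A.X KO 4 partners rose and 5 fell (against 14.8% and 16.1% of all genes), and in H2A.X WT 0 rose and 2 fell (0.839% and 1.16%), ACTG1 and ACTB.

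Between genotypes, 3 of the 13 partners were higher and 0 lower in H2A.X KO at D6, near the 22.2% of all genes called higher, among them ADD3 at 1.64 ± 0.29 (adjusted p = 0.00402) and TMOD3 at 1.36 ± 0.24 (adjusted p = 0.00418). With the length and GC correction 3 were higher and 1 was lower, ADD3 at 1.07 (adjusted p = 0.0222) and TMOD3 at 0.38 (adjusted p = 0.0732). At D0 2 were higher and 1 was lower (against 18.4% and 16.7% of all genes), and with the correction 2 and 2 (9.22% and 13.3%). In BAZ1B KO at D6 2 were lower, among them MPP1, and TPM1 was higher (against 5.97% and 6.87% of all genes). At D0 none of the 13 was called in edgeR, with 2 at an unadjusted p below 0.05 and 1 called by DESeq2.

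Of 11 membrane proteins that anchor to the skeleton or sit beside band 3, 9 rose and 2 fell in BAZ1B WT over 6 days (against 33.5% and 35.4% of all genes), 9 rose and 1 fell in BAZ1B KO (33.2% and 34.5%), and 8 rose and 1 fell in H2A.X KO (14.8% and 16.1%). In H2A.X WT none was called in edgeR, with 3 at an unadjusted p below 0.05 and 1 called higher by DESeq2. The glucose transporter SLC2A1 rose in H2A.X KO by 2.81 ± 0.36 (adjusted p = 0.000452). At D0 6 of the 11 were lower in H2A.X KO than in WT and none was higher (against 16.7% and 18.4% of all genes), with a median log2 fold change of -0.59 over the list against 0.013 over all genes. RHCE and GYPB were among them, at -2.80 and -1.75, but both can share reads with near-identical copies. With the length and GC correction 3 were lower (against 13.3% of all genes), GYPB at -1.24 (adjusted p = 0.0138) among them, and RHCE was at -2.40 (adjusted p = 0.063). At D6 3 were higher and 1 was lower in H2A.X KO (against 22.2% and 20.9% of all genes), with STOM, a stomatin, at 1.07 ± 0.28 (adjusted p = 0.0127) and RHAG at 0.85 ± 0.28 (adjusted p = 0.034). With the correction 2 were higher and 1 was lower, RHAG at 1.06 (adjusted p = 0.0405), and STOM was at 0.85 (adjusted p = 0.0553). In BAZ1B KO 5 of the 11 were lower at D6 and none was higher (against 5.97% and 6.87% of all genes), with SLC2A1 at -0.47 ± 0.088 (adjusted p = 0.0037) and STOM at -0.31 ± 0.049 (adjusted p = 0.00125), and at D0 none was called in edgeR, with 4 at an unadjusted p below 0.05 and 0 called by DESeq2.

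The relatives of these genes that serve other cell types fell more often than they rose in 3 of the 4 maturation comparisons. Of 20 such paralogs 12 passed the filter in each experiment, and ADD3 and TMOD3 are counted among the partners as well. Over the 6 days 9 fell and 3 rose in BAZ1B WT (against 35.4% and 33.5% of all genes), as in BAZ1B KO (34.5% and 33.2%). In H2A.X KO 6 fell and 2 rose (16.1% and 14.8%), and in H2A.X WT 0 fell and 1 rose (1.16% and 0.839%). SPTBN1, the beta spectrin of most tissues, fell in BAZ1B WT by 4.61 on the log2 scale (adjusted p = 5.56e-08), and SPTAN1, the matching alpha spectrin, by 3.97 (adjusted p = 2.29e-07). SPTAN1 stood at 39.8, 34.4 and 31.7 CPM at D0 and 1.84, 1.90 and 2.95 CPM at D6 in BAZ1B WT. In the H2A.X experiment it stood at 0.460 and 0.341 CPM in WT and 33.0, 10.8 and 7.54 CPM in KO at D0 (5.38 ± 0.77 on the log2 scale, adjusted p = 0.00377). The WT values rest on 8 and 5 reads, and at D6 SPTAN1 was at 1.5 and 0.713 CPM in WT and 0.418, 0.379 and 0.220 CPM in KO. At D0 6 of the 12 paralogs were higher in H2A.X KO than in WT and none was lower (against 18.4% and 16.7% of all genes), with a median log2 fold change of 1.42 over the list against 0.013 over all genes. With the length and GC correction 3 were higher and none was lower (edgeR, against 9.22% and 13.3% of all genes), with a median of 0.67. SPTAN1 was then at 4.65 (adjusted p = 0.00578). The mast cell, megakaryocyte and lymphoid and myeloid marker sums were higher in the same KO libraries, and their part was not tested. TMOD1 over TMOD3, the tropomodulin of most cells, was 0.924, 0.911 and 0.965 per kilobase at D0 and 3.35, 3.43 and 4.11 at D6 in BAZ1B WT. It was 5.02 and 8.05 in H2A.X WT and 1.77, 1.95 and 1.75 in H2A.X KO at D0, and 6.74 and 8.98 and 3.25, 4.47 and 4.61 at D6, with every KO library below every WT library on both days. This uncorrected ratio is again of a shorter transcript (3311 bases) to a longer one (8232 bases), so genotype and length cannot be told apart in it.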

How the data were processed

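Total RNA of HUDEP-2 cells was sequenced (RNA-Seq). The authors deposited raw counts of reads per gene, 1 table per experiment and 1 column per library, without normalization, and 0 columns belonged to no sample. The submitters' processing notes name hg38, STAR 2.7.0f, Subread 1.6.4 with featureCounts, and DESeq2 1.22.1, and the study's methods name GENCODE 31. The labels and the methods name different library kits and read lengths, and whether counting used strand is not given in the sources used here, so reads of antisense or overlapping genes may be included. Groups follow the genotype and day in the labels.

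The analysis used edgeR 4.0.16 under R 4.3.3. Genes with low counts were dropped by filterByExpr (smallest count 10, smallest total 15), and libraries were scaled by TMM and fitted by the quasi-likelihood method with 1 coefficient per genotype and day, on all libraries of an experiment (13236 and 13879 genes), or on all 22 libraries for the difference of KO effects between experiments (15156 genes). A gene was called at a Benjamini-Hochberg adjusted p below 0.05 over all genes of the fit, and ± gives the error (SE) of log2 values, taken from the F statistic. The smallest library held 11910141 counts. The members, the other gene lists and the tests were chosen with earlier results of these data known. All 9 members are named, and of each other list up to 3 called genes with the largest change and a mean normalized count of at least 50, apart from some items that are not reported here and stay in the counts over lists. Genes most like a member were the 3 with the highest mean of Pearson's r over both experiments. Levels per kilobase use the Ensembl canonical transcript of GENCODE 44, and promoter stretches come from RefSeq.

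Alternatives were DESeq2 1.42.0, upper-quartile normalization, no filter, a stricter DEG rule (adjusted p below 0.001 and absolute log2 fold change above 1.5), a replicate block, a smooth fit of transcript length and GC content removed from each library, with and without that block, leaving out globin genes, the compared day or genotype alone, and leaving out each library. The DEG rule with an unadjusted p, which is how the study words it, was added after seeing the data. The correction covered 90.8% and 89.4% of the genes tested. D0 and D6 libraries of the same genotype and number deviated together in the H2A.X experiment (r from 0.298 to 0.600 in 5 pairs, of which the 2 WT pairs mirror each other). The column names give KO libraries of both days the same line numbers, and whether these mark subclones is not stated in the labels. No libraries were counted as duplicates. The procedure was tested on simulated data.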

Additional observations from a re-analysis of the deposited data

Results flagged for a closer look

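The KO effect on a skeleton gene differed between D6 and D0 in 2 cases, by the interaction test of edgeR. In the H2A.X experiment it did so for TMOD1, with a difference of 1.47 (adjusted p = 0.0386), and in the BAZ1B experiment for SLC4A1, with 2.11 (adjusted p = 0.0053).

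The KO effects of both experiments differed in the joint fit, which used 1 spread per gene for both experiments, so its p-values may be too small. At D0 the log2 effect in the H2A.X experiment minus that in the BAZ1B experiment was 0.95 for ANK1, -0.47 for ADD2, -0.98 for DMTN and -0.80 for TMOD1. At D6 it was 1.39 for SPTB, 1.65 for ANK1, 1.91 for EPB41 and 1.02 for EPB42. For the other 4 genes past the test at D6 it was 2.40 for SLC4A1 (adjusted p = 0.0393), 0.44 for ADD1, 1.12 for DMTN and 0.53 for TMOD1 (adjusted p = 0.0448). Of these 12 differences, 2 at D0 and 5 at D6 passed the test in the same direction after the length and GC correction.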

How the results depend on the processing

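With 2 WT libraries a day, single libraries decide many calls of the H2A.X experiment. Its KO to WT differences go with transcript length, so that genotype and length cannot be told apart for long transcripts, and the Redo mark nearly coincides with KO. Few reads lie behind the SLC4A1 level of BAZ1B KO at D0, read from 82 to 243 counts a library, and behind SPTAN1 in H2A.X WT at D0, read from 8 and 5. Under 13 alternatives, 870 of 1044 single values kept direction and side of the threshold, 107 lost and 46 gained the call, and 21 turned direction. Of 116 counts of members called, 78 stayed within 1.5 times. Where no cause is named, it was not tested.

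At D0 in the H2A.X experiment, where 5 of the 9 members were called, 8 of the 9 were called without a filter, 0 under the DEG rule, and 3 with the length and GC correction, alone or with the replicate block. At D6, where 5 of the 9 were called, 0 were DEGs, 3 were called with the correction and 3 with the libraries of D6 alone. In H2A.X WT maturation 1 was called without a filter, and in H2A.X KO maturation 2 were DEGs. For the H2A.X interaction DESeq2 called 5, upper-quartile normalization 2, no filter 6, the DEG rule 0, the block of genotype and number 4, with the correction 4, and leaving out globin genes 2. In the BAZ1B experiment at D0 DESeq2 called 2 and no filter 4, at D6 the DEG rule 0, in maturation the DEG rule 4 in WT and 5 in KO, and for the interaction DESeq2 2, no filter 2 and the DEG rule 0. For the difference between experiments at D0, 0 were DEGs and 2 were called with the correction, with or without the block. At D6 upper-quartile normalization called 5 and the DEG rule 2. With an unadjusted p in the DEG rule, an alternative added after seeing the data, 0 members passed at D0 and 2 at D6 (ANK1 and EPB41), 3 in KO maturation and 0 for the interaction of the H2A.X experiment, 0 at D6, 4 in WT and 5 in KO maturation of the BAZ1B experiment, and 0 at D0 and 2 at D6 for the difference between experiments. A stricter rule calls fewer genes by construction.

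Without a filter, the log2 value turned to -0.013 for EPB41 in H2A.X WT maturation. With the length and GC correction it turned to -0.27 for SPTB and -0.18 for ADD1 in H2A.X KO over WT at D0, -0.53 for ADD2 in H2A.X KO over WT at D6, 0.044 for ANK1 in H2A.X WT maturation, -0.028 for SPTB in the BAZ1B interaction, -0.23 for SPTB, -0.29 for SLC4A1 and -0.24 for ADD1 in the difference between experiments at D0, -0.73 for ADD2 in the difference between experiments at D6. With that correction and the replicate block it turned to -0.17 for SPTB and -0.19 for ADD1 in H2A.X KO over WT at D0, -0.59 for ADD2 in H2A.X KO over WT at D6, where it was called lower (adjusted p = 0.00958), -0.13 for SPTB, -0.35 for SLC4A1 and -0.24 for ADD1 in the difference between experiments at D0, -0.79 for ADD2 in the difference between experiments at D6. With that correction and the block of genotype and number it turned to 0.049 for ANK1 in H2A.X WT maturation, -0.028 for SPTB in the BAZ1B interaction. With upper-quartile normalization it turned to -0.0080 for SPTB in the BAZ1B interaction, -0.017 for ADD1 in the difference between experiments at D0.

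Leaving out each library in turn gave 0 to 8 calls at D0, 0 to 7 at D6, 0 to 0 in WT maturation, 5 to 8 in KO maturation and 0 to 6 for the interaction of the H2A.X experiment. It gave 1 to 1, 1 to 4, 9 to 9, 9 to 9 and 1 to 2 in the BAZ1B experiment, and 3 to 6 at D0 and 5 to 8 at D6 for the difference between experiments. The log2 value crossed 0 in H2A.X KO over WT at D0, at -0.056 to 0.24 for ADD1, H2A.X WT maturation, at -0.11 to 0.46 for SPTB, -0.37 to 0.34 for ANK1, -0.25 to 0.36 for EPB41 and -0.19 to 0.12 for EPB42, BAZ1B KO over WT at D0, at -0.0072 to 0.045 for ADD1, BAZ1B KO over WT at D6, at -0.11 to 0.082 for TMOD1, the BAZ1B interaction, at -0.0055 to 0.058 for SPTB, the difference between experiments at D0, at -0.89 to 0.69 for SLC4A1 and -0.042 to 0.28 for ADD1.

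With the replicate number as a block, 6 members were called at D0 and 7 at D6 in the H2A.X experiment and 1 and 4 in the BAZ1B experiment. Deviations of KO and WT libraries of the same number and day correlated at 0.072 to 0.208 in 4 pairs of the H2A.X experiment. In the BAZ1B experiment these values were -0.085 to 0.221 in 6 pairs. Libraries of different number correlated at -0.208 to 0.014 in 8 pairs and -0.216 to 0.139 in 12. The 2 WT libraries of a day mirror each other in the H2A.X experiment. Whether KO and WT libraries share more than a number can therefore not be told from these values. D0 and D6 libraries of the BAZ1B experiment correlated at -0.0022 to 0.609 in 6 pairs, not all above 0.1. Beside the H2A.X interaction, the block of genotype and number moved no count of maturation or interaction calls by over 1.5 times.

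Upper-quartile normalization shifted the median log2 value of all genes by -0.11 at D6 in the H2A.X experiment and by -0.12 at D0 and -0.16 at D6 in the difference between experiments. The share of all calls that were higher moved from 52.3% to 41.0% at D0 in the H2A.X experiment and from 32.1% to 48.8% at D0 in the BAZ1B experiment with the length and GC correction. For the H2A.X interaction it moved from 22.6% to 41.3% with DESeq2 and 39.4% with the correction, and for the BAZ1B interaction from 63.8% to 51.2% with upper-quartile normalization. For the difference between experiments it moved from 57.0% to 46.6% (upper quartile) and 41.2% (correction) at D0 and from 57.8% to 46.6% (upper quartile) at D6.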
